A study of Mus musculus with 6 samples.

Results

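Guanylate binding proteins (GBPs) and immunity-related GTPases (IRGs) are families of large GTPases that cells make in response to interferons, above all interferon gamma. The genes described here are 10 members of these families, namely Gbp2, Gbp3, Gbp4, Gbp6, Gbp7, Igtp, Irgm1, Irgm2, Iigp1 and Ifi47. They were taken by name from a table of FPKM values per transcript (fragments per kilobase of transcript, scaled to the size of the library), which were summed per gene. The 10 members stood among 25823 genes of the table and had 26 of its 56671 transcripts, all of them coding. All 10 passed the filter on low values, a mean of at least 0.1 FPKM over all libraries.

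The libraries were made from the cochlea of C57BL/6 mice, an inbred strain that loses hearing early in life. There were 3 libraries of young mice, 1 month old by the labels and 4 weeks old by the study's methods, and 3 libraries of old mice, 12 months old. Both groups were of the same strain, with no treatment or engineered allele in the labels, and the dissected tissue was the basilar membrane of the cochlea. Tissue of 3 mice was mixed for each library, so that the spread between libraries is a spread between pools.

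GBPs bind GTP, form polymers and coat the membranes of intracellular bacteria and of the vacuoles in which parasites live. The IRGs fall into effectors, which help to break such vacuoles, and into the regulatory Irgm proteins, which sit on membranes of the host cell and keep the effectors inactive there. In mice both families are encoded in clusters of neighbouring genes, and their promoters are known for the ISRE (interferon-stimulated response element), bound by factors of the IRF family, and for the GAS (gamma-activated site), through which interferon gamma acts.

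The stretch of 110 bases before the start of transcription is shown for the 6 members in which these letters were found, to show where the letters lie. The sequences are those of RefSeq on the build GRCm38.p6, read 5′ to 3′ along the gene. Capitals mark a match to GAAANNGAAA (the core of the ISRE, on either strand) or to TTCNNNGAA (the GAS, which reads alike on both strands), and position 0 is the RefSeq start. The stretches lie at chr3:142530226-142530335 (Gbp7, + strand), chr3:142559934-142560043 (Gbp3, +), chr3:142620553-142620662 (Gbp2, +), chr11:48871421-48871530 (Irgm1, −), chr11:58199446-58199555 (Igtp, +) and chr11:58214867-58214976 (Irgm2, +).
Gbp7: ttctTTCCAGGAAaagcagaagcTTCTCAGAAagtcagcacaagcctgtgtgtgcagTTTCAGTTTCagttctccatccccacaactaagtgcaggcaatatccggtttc
Gbp3: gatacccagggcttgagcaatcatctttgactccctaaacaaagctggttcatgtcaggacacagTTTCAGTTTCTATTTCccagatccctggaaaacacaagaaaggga
Gbp2: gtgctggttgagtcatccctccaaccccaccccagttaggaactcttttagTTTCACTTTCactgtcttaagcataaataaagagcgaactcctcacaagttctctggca
Irgm1: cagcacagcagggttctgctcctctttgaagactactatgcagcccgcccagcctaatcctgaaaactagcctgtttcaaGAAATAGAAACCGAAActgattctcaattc
Igtp: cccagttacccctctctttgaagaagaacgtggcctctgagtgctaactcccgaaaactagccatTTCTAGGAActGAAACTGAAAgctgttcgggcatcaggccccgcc
Irgm2: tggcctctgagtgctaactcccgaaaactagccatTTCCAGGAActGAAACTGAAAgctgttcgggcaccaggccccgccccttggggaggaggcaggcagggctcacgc

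RefSeq promoter windows, from 250 bases before to 50 bases after a start, were found for 7 of the 10 members, and Gbp3 had a pair of starts, which gave 8 windows. Gbp4, Gbp6 and Iigp1 had no entry. The ISRE core stood in 6 of the 8 windows, against 3.44% of all 32851 windows, and the GAS in 3 of the 8 windows, against 8.3% of all. Both motifs stood in the same window in Gbp7, Igtp and Irgm2, and in 0.454% of all windows. Gbp3 and Irgm1 each held a pair of ISRE cores that overlap. In Igtp the GAS ended at position -37 and the ISRE core began at -34, and in Irgm2 the same arrangement ran from -67 to -64. The windows of Igtp and Irgm2 share nearly all letters around these motifs, so that their matches are not independent of each other. The window of Ifi47 and the second window of Gbp3 held neither run of letters, and the window of Ifi47 belongs to the start of a transcript that was near 0 FPKM in all libraries. The most abundant transcript of Gbp3, ENSMUST00000106221, starts 55 nt after the second RefSeq start and 367 nt after the first, which has the ISRE cores. The transcript of Ifi47 with nearly all of its FPKM starts 10452 nt further on and was not in a window. The transcript of Gbp2 in the table begins 61 nt before the RefSeq start, so that the marked letters of Gbp2 lie at its first bases. A match is a run of letters and not a measured binding site. Of the other family genes, 6 of 9 windows held the ISRE core and 4 of 9 the GAS.

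**Figure D1:**
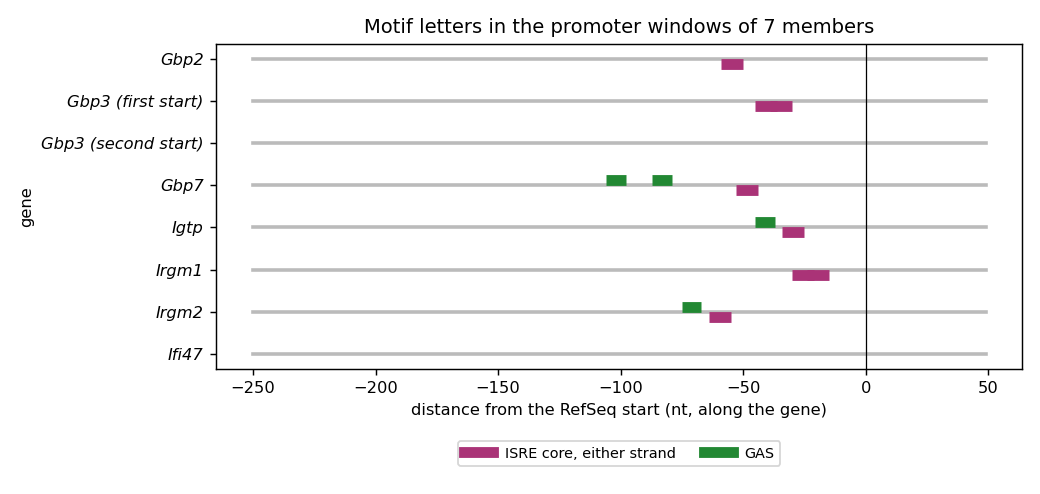
Each grey line is a promoter window of a member, from 250 bases before to 50 bases after its RefSeq start (x axis, nt along the gene), and boxes mark matches to the ISRE core and the GAS. In the 6 windows with a match, every ISRE core lies between positions -64 and -15, and a GAS is seen in Gbp7, Igtp and Irgm2.

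The depth of the libraries, worked out from the spacing of the smallest FPKM values, was 12540000 to 15660000 fragments, and old replicate 2 was the deepest. Markers of the cochlea were present in all libraries, such as the hair cell genes Ocm (oncomodulin) at 47.8 to 173 FPKM and Slc26a5 (prestin) at 2.96 to 7.68 FPKM. Young replicate 1 stood apart by its neutrophil markers, whose 8 genes summed to 432.8 FPKM, against 11.6 and 27.4 FPKM in the other young libraries and 14.9 to 82.5 FPKM in the old ones. It was also the highest young library by the sum of bone markers, with 206.0 FPKM against 28.5 and 87.3 FPKM. The same held for B and plasma cell markers, with 4.28 FPKM against 1.31 and 0.665 FPKM. Counts of called genes are therefore also given without young replicate 1, and without old replicate 2, in which the members were highest.

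All 10 members had a higher mean in old than in young mice. By limma on log2(FPKM + 0.1), with p adjusted over 19649 genes and called below 0.05, 5 of the 10 rose in old mice, namely Gbp6, Gbp3, Iigp1, Irgm1 and Igtp, and none fell, also at an unadjusted p below 0.05. Over all genes tested, 5.41% rose and 3.68% fell, 9.09% in all. All 5 also rose at least 2-fold, as 2.06% of all genes did. At an unadjusted p below 0.05, 9 of 10 members were higher in old mice, against 14.5% of all genes. The median log2 change of the members was 1.53, and that of all genes was 0.01. For 9 of 10 members every old library lay above every young library, against 17.5% of all genes, and 33.5% of all genes had groups that did not overlap in either direction. The calls depended on the filter and on the variance trend of the fit, as limma called 0 of 10 members without the filter on low values and 0 of 10 without a variance trend, with 8 and 9 of 10 at an unadjusted p below 0.05. The libraries are bulk tissue, in which a change in the number of cells that make an RNA and a change in the RNA per cell cannot be told apart.

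The summed FPKM of the 10 members was 86.7, 59.1 and 63.4 in the young libraries and 140.3, 368.2 and 204.5 in the old libraries. The mean was 69.7 ± 14.9 (SD, n = 3) in young and 238 ± 117 (SD, n = 3) in old mice, a ratio of 3.41. Young replicate 1 was thus the highest of the young pools and old replicate 2 the highest of the old ones, and the lowest old pool lay above the highest young pool.

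**Figure D2:**
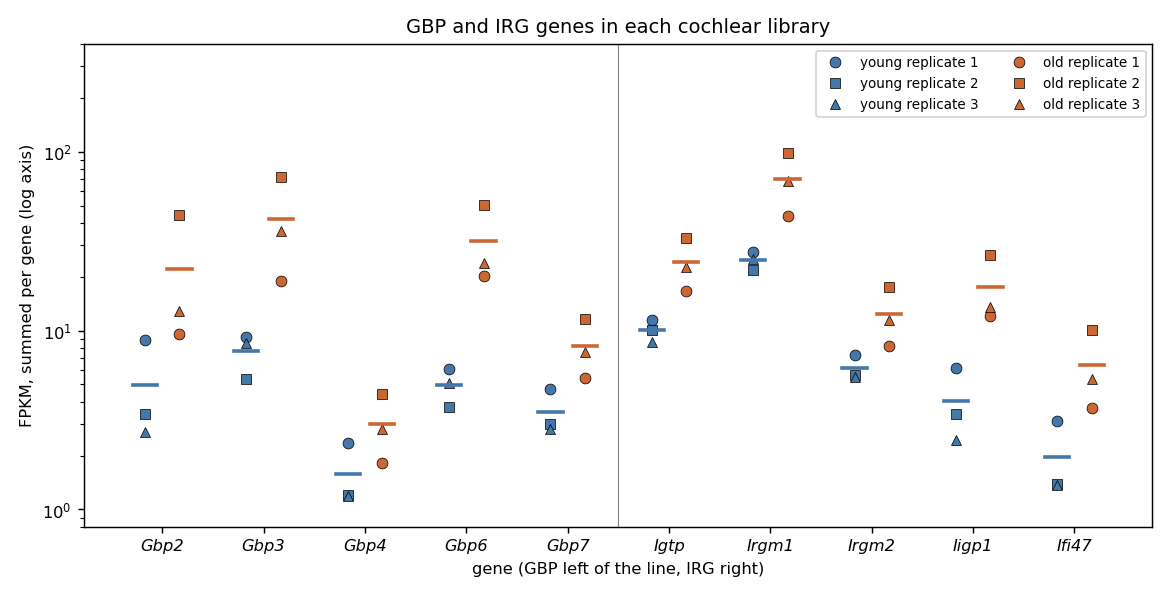
FPKM of each of the 10 members on a log axis, with 1 point per library, 3 young and 3 old, and lines at the group means. The groups overlap only for Gbp4, and old replicate 2 is the highest old library for all 10 members.

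Of the GBPs among the members, Gbp6 changed most. Its FPKM was 6.07, 3.74 and 5.12 in young and 20.2, 50.6 and 23.8 in old libraries. All old libraries lay above all young ones, and the log2 change was 2.55 with an SE of 0.34 (limma adjusted p = 0.0135), or 5.84-fold. Gbp6 (ENSMUSG00000104713, chromosome 5 from 105270702 to 105293698, − strand) is a GBP of the chromosome 5 cluster. It was also the only member that passed whichever library was left out, with adjusted p from 0.0201 to 0.0461 in limma. Its sequence is not its own throughout, since 76.5% of its 150-base stretches also stand in transcripts of Gm43302, which the table lists at most at 7.83e-07 FPKM. How the fragments were divided between these genes was not tested.

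Gbp4 lies in the same cluster (ENSMUSG00000079363, 105115767 to 105139586, − strand), overlapping Gbp8 and Gbp9 on the same strand, and has been described as an inhibitor of IRF7. It had the lowest level of the members, with 2.36, 1.20 and 1.19 FPKM in young and 1.83, 4.41 and 2.82 FPKM in old libraries. The groups overlapped, as young replicate 1 lay above old replicate 1, and the log2 change of 0.87 with an SE of 0.38 did not pass (limma adjusted p = 0.192, exact permutation p = 0.2, two-sided). Its main transcript, ENSMUST00000100962, did not overlap between groups, with 0.924 ± 0.172 FPKM in young and 1.80 ± 0.481 FPKM in old mice (SD, n = 3).

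The other GBPs among the members are neighbours on chromosome 3, with Gbp7 from 142530342 to 142550149, Gbp3 from 142560026 to 142573209 and Gbp2 from 142620602 to 142638008, all on the + strand. Gbp3 (ENSMUSG00000028268) belongs to the GBPs that restrict Toxoplasma as a cluster. It was listed at 9.17, 5.38 and 8.53 FPKM in young and 19.0, 71.8 and 35.9 FPKM in old libraries. The groups were well apart, with a log2 change of 2.27 and an SE of 0.45 (limma adjusted p = 0.0287). Without young replicate 1 or without old replicate 2 the change was 2.42 or 1.79, and the adjusted p was 0.0593 or 0.0697.

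Gbp2 (ENSMUSG00000028270), which is recruited to parasite vacuoles and helps to expose bacterial DNA to the Aim2 sensor, showed the largest SE of the log2 change among the members. It was listed at 8.84, 3.40 and 2.70 FPKM in young and 9.57, 44.2 and 12.9 FPKM in old libraries. Old replicate 2 was 3.93 times the mean of the other old libraries, young replicate 1 was 2.90 times the mean of the other young ones, and young replicate 1 and old replicate 1 were nearly level. The log2 change of 2.00 had an SE of 0.63 and did not pass (limma adjusted p = 0.0911).

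Gbp7 (ENSMUSG00000040253), which has been linked to assembly of the NADPH oxidase in macrophages, was listed at 4.72, 3.00 and 2.82 FPKM in young and 5.43, 11.5 and 7.56 FPKM in old libraries. The groups did not overlap, but young replicate 1 and old replicate 1 were close, and the log2 change of 1.17 with an SE of 0.31 did not pass (limma adjusted p = 0.0567). It passed with a filter at 1 FPKM (adjusted p = 0.0446). A share of 8.77% of its 150-base stretches is also found in Gm43802, which was not in the table.

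Among the IRGs, the regulators Irgm1, Irgm2 and Igtp (also called Irgm3) are encoded on chromosome 11. Irgm1 (ENSMUSG00000046879, 48861968 to 48871683, − strand), which acts on lysosomes, mitochondria and autophagy and restrains interferon responses, had the highest level of all members in both groups. It was listed at 27.5, 21.8 and 25.0 FPKM in young and 43.7, 98.4 and 68.4 FPKM in old libraries. The lowest old library was thus well above the highest young one, and Irgm1 rose with a log2 change of 1.43 and an SE of 0.27 (limma adjusted p = 0.0261), or 2.69-fold.

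Igtp (ENSMUSG00000078853, 58199556 to 58207591, + strand), a regulator on the endoplasmic reticulum, was listed at 11.4, 10.1 and 8.69 FPKM in young and 16.6, 33.0 and 22.7 FPKM in old libraries. The groups did not overlap, and it rose with a log2 change of 1.20 and an SE of 0.24 (limma adjusted p = 0.0292). Both Irgm1 and Igtp lost the call without young replicate 1 (adjusted p = 0.0549 and 0.0567) and without old replicate 2 (adjusted p = 0.0651 and 0.0708).

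Irgm2 (ENSMUSG00000069874, 58199618 to 58222782, + strand), a Golgi protein known to hold back the response to cytosolic lipopolysaccharide, was listed at 7.31, 5.64 and 5.54 FPKM in young and 8.25, 17.6 and 11.4 FPKM in old libraries. The groups did not overlap, and the log2 change of 0.94 with an SE of 0.27 did not pass (limma adjusted p = 0.0693). Irgm2 and Igtp overlap on the same strand. The transcript of Irgm2 that starts within Igtp, ENSMUST00000058704, was at most at 0.000139 FPKM in young libraries and at 0.371 ± 0.0427 FPKM (SD, n = 3) in old ones. It carried 2.99% of the level of Irgm2 in old mice.

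The effectors Iigp1 and Ifi47 lie apart. Iigp1 (ENSMUSG00000054072, chromosome 18, + strand), also called Irga6, is a GTPase that loads onto parasite vacuoles. It was listed at 6.20, 3.41 and 2.44 FPKM in young and 12.1, 26.5 and 13.6 FPKM in old libraries. All old libraries lay above all young ones, and it rose with a log2 change of 2.10 and an SE of 0.39 (limma adjusted p = 0.0261). It also passed without young replicate 1 (adjusted p = 0.0257) but not without old replicate 2 (adjusted p = 0.0796). Nor did it pass in limma without old replicate 1, old replicate 3 or young replicate 2 (adjusted p = 0.0588, 0.0652 and 0.0815).

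Ifi47 (ENSMUSG00000078920, chromosome 11 from 49076587 to 49096974, + strand), also called Irgd, was listed at 3.11, 1.39 and 1.37 FPKM in young and 3.70, 10.1 and 5.39 FPKM in old libraries. Young replicate 1 lay just below old replicate 1, and the log2 change of 1.64 with an SE of 0.43 did not pass (limma adjusted p = 0.0580). Its values rest on few fragments, an estimated 23.9 in young replicate 3 and 222.7 in old replicate 2, and Gbp4 had an estimated 47.8 to 170.6 fragments per library, whereas Irgm1 had an estimated 561.4 to 2900.5 fragments per library. For the 9 members without overlap the exact permutation test gave p = 0.1, the smallest two-sided p that 3 against 3 libraries allow.

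**Figure D3:**
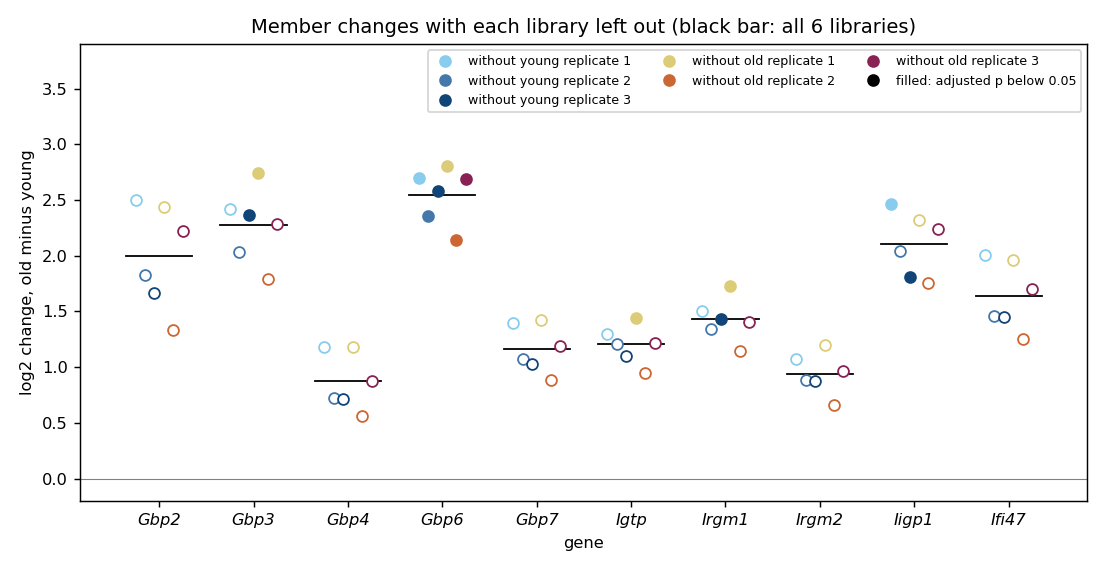
Log2 change (old minus young) of each member with all 6 libraries (black bars) and with each library left out (circles), which are filled where the limma adjusted p was below 0.05. All changes stay above 0, as they must for the members whose groups do not overlap, and Gbp6 alone is filled in every setting.

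FPKM is scaled to transcript length, so levels can be compared between genes. In young mice the order of the mean FPKM was Irgm1, Igtp, Gbp3, Irgm2, Gbp2, Gbp6, Iigp1, Gbp7, Ifi47 and Gbp4. Irgm1 stood above Igtp in every library, and the ranges over the libraries overlapped for the other neighbours in this order. Within each young library, Igtp still stood above Gbp3, Gbp7 above Ifi47 and Ifi47 above Gbp4. In old mice the order was Irgm1, Gbp3, Gbp6, Igtp, Gbp2, Iigp1, Irgm2, Gbp7, Ifi47 and Gbp4, and the ranges of all neighbours overlapped. Within each old library, Irgm1 still stood above Gbp3, Gbp6 above Igtp and Iigp1 above Irgm2. The same held for Irgm2 above Gbp7, Gbp7 above Ifi47 and Ifi47 above Gbp4. Irgm1 made up 35.5% of the summed level of the members in young and 29.5% in old mice. Gbp6 made up 7.14% and 13.3%.

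The members differed in the size of their change but shared the order of the old libraries and the highest young library. Young replicate 3 lay above young replicate 2 for Gbp3, Gbp6 and Irgm1 and below it for the other members. Old replicate 2 was the highest old library for 10 of 10 members, against 29.5% of all genes, and young replicate 1 was the highest young library for 10 of 10 members, against 32.2% of all genes. Old replicate 2 was a median of 1.98 times the mean of the other old libraries over the members and 0.992 times over all genes. Young replicate 1 was 1.50 times the mean of the other young libraries over the members and 0.990 times over all genes. Without old replicate 2, Gbp6 alone passed and the median log2 change of the members was 1.20, when 0.225% of all genes rose. Without young replicate 1, Gbp6 and Iigp1 passed with a median of 1.76, when 2.76% of all genes rose. With both left out, Gbp6 and Iigp1 passed, when 0.278% of all genes rose. Gbp6 alone also passed without old replicate 3 and without young replicate 2, when 247 and 221 of all genes rose. What sets old replicate 2 and young replicate 1 apart was not tested.

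By transcript, 24 of the 26 could be tested, of which 22 were higher and 2 lower in old mice. The transcript of Gbp6, ENSMUST00000196520, passed (limma adjusted p = 0.0441 over 38764 transcripts), and 0.549% of all transcripts rose. The groups did not overlap for 18 of the 24, all higher in old mice, against 12.6% of all transcripts. The transcripts that were lower, ENSMUST00000199629 of Gbp4 and ENSMUST00000168280 of Igtp, had log2 changes of -0.07 and -0.31 with SEs of 0.90 and 0.65, and neither passed. In Irgm1, the transcript ENSMUST00000097271 made up 57.1% of the level in young and 56.3% in old mice. In Gbp3, the long transcripts ENSMUST00000106221 and ENSMUST00000106222 had log2 changes of 2.59 and 2.61. Its short transcript of 477 nt, ENSMUST00000142060, ranged from near 0 to 3.996 FPKM among young libraries alone and made up 19.1% of Gbp3 in young and 4.01% in old mice. With transcripts under 500 nt left out, a choice made after seeing the data, 7 of 10 members passed, the additional ones being Gbp7 and Ifi47, when 6.77% of all genes rose.

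Of the other mouse GBP and IRG genes that were listed, 15 were in the table and 13 passed the filter. Of these, 6 rose and none fell, where 5.41% of all genes rose and 3.68% fell. A higher mean in the old group was seen for 12 of the 13. Their median log2 change was 1.47. They were led by relatives of Iigp1 on chromosome 18 and by genes of the members' own clusters. F830016B08Rik was listed at 0.175, 0.0479 and 0.0532 FPKM in young and 1.72, 3.86 and 1.77 FPKM in old libraries, with a log2 change of 3.69. Its young mean was under the filter and the pseudocount, so that it was tested through its level in old mice alone. Gbp10 changed by 3.18, Tgtp1 by 3.14, Gm4951 by 3.08, Gbp9 by 1.51 and 9930111J21Rik2 by 1.03, all on the log2 scale with limma adjusted p from 0.0194 to 0.0450.

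The log2 changes of those that did not pass were 1.54 for Gm5431, 1.47 for Tgtp2, 1.44 for Gbp8, 1.36 for 9930111J21Rik1, 0.75 for Gbp5, 0.18 for Gvin1 and -0.08 for Irgq. Gbp5, an activator of inflammasomes, was listed at 3.56, 1.85 and 1.27 FPKM in young and 2.64, 5.58 and 2.92 FPKM in old libraries, so that the groups overlapped. Irgq, an IRG relative that is not induced by interferon, was listed at 16.0 to 18.7 FPKM in young and 15.0 to 17.2 FPKM in old libraries. Gbp2b and Irgc1 were below the filter. Without old replicate 2, limma called 0 of these 13 genes, with 9 at an unadjusted p below 0.05, when 0.225% of all genes rose.

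**Figure D4:**
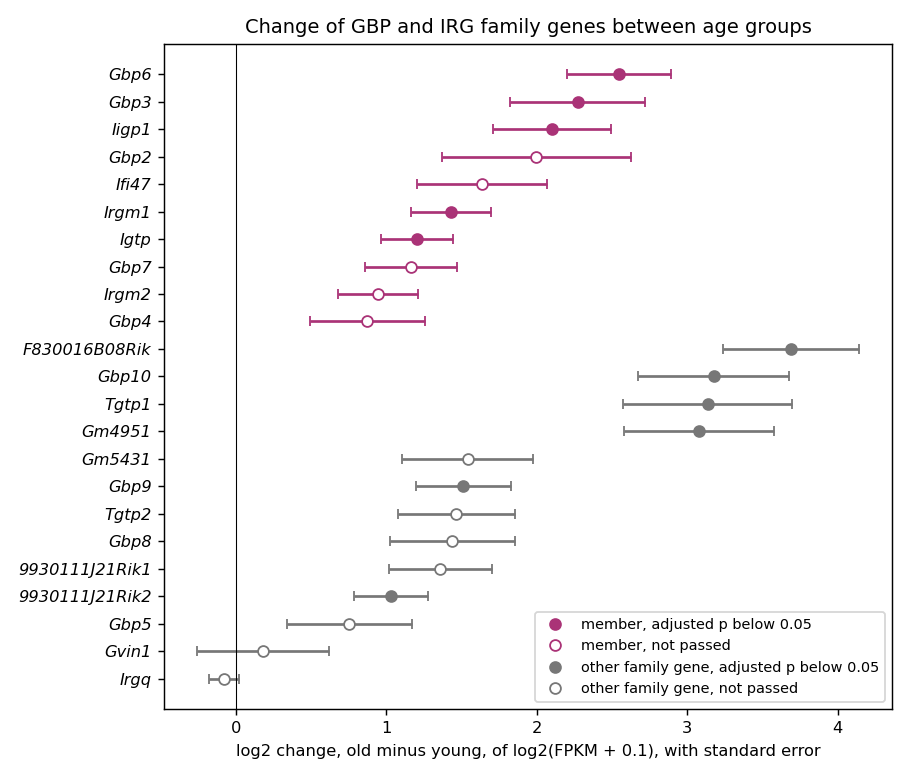
Log2 change (old minus young, bars are SE) of the 10 members and the 13 other GBP and IRG genes tested, with filled symbols for a limma adjusted p below 0.05. All members and 12 of 13 other family genes lie above 0, and Irgq lies just below it.

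Large GTPases that are built like the GBPs but are not made in response to interferon were used as a comparison. These were the atlastins, the dynamins, the mitofusins and Opa1, which shape and divide membranes of the cell. Of the 10 genes, none rose and 2 fell, Dnm1 with a log2 change of -0.97 and Dnm3 with -0.73 (limma adjusted p = 0.0273 and 0.0294), and at an unadjusted p below 0.05 none was higher. The median log2 change was -0.17, and 9 of 10 were lower in old mice. Over all genes, 3.68% fell. Dnm1 and Dnm3 are dynamins known from neurons, and 4 of 6 spiral ganglion markers fell as well, namely Nefm (-1.30), Snap25 (-1.19), Nefl (-1.07) and Tubb3 (-0.88). Of the others, Stmn2 had a log2 change of -0.90 and Prph of 0.70, both named after their values were seen, and neither passed. Limma called 0 of the 6 markers without the filter, without a variance trend or without any 1 of old replicates 1, 2 and 3 and young replicate 1, with 5 lower at an unadjusted p below 0.05 in each. In these fits 15 to 168 of all genes fell, against 724 as reported. A link between these markers and the fall of Dnm1 and Dnm3 was not tested.

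Interferon gamma signals through the receptor chains Ifngr1 and Ifngr2 and the kinases Jak1 and Jak2, and Irf1 is among the factors it induces. Ifng itself was listed at 0 in all 6 libraries. Of the 12 genes of this pathway that could be tested, 2 rose, the feedback inhibitor Socs3 with a log2 change of 1.16 (limma adjusted p = 0.0244) and Ifngr1 with 0.35 (limma adjusted p = 0.0358). The log2 changes of Irf8 (0.93), Socs1 (0.42), Irf1 (0.38), Jak2 (0.02), Jak1 (-0.07) and Ifngr2 (-0.31) did not pass. Over all genes, 5.41% rose. Of 15 targets that are typical of interferon gamma, 8 rose, led by Nlrc5 (2.28), the immunoproteasome subunit Psmb8 (2.20), Cd274 (1.72), Psmb9 (1.65) and the peptide transporter Tap1 (1.53), and their median log2 change was 0.95. Cxcl9, a chemokine induced mainly by interferon gamma, was between 0.0306 and 0.285 FPKM in all libraries, with groups that overlapped.

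Type I interferon signals through Ifnar1, Ifnar2 and Tyk2, and Irf9 is part of the complex that acts on the ISRE. Ifnb1 was listed at 0 in 5 libraries and at 0.136 FPKM in old replicate 2. Of 8 genes of this pathway tested, 3 rose, namely Irf7 (3.01), Irf5 (2.11) and Irf9 (1.08), where 5.41% of all genes rose. Of 19 targets, 15 rose and all 19 were higher in the old group, led by Mx1 (4.10), Ifi44 (2.94), Oas1a (2.74), Ifit3 (2.67) and Isg15 (2.30), with a median log2 change of 1.86. Irf7, the factor that amplifies this response, was listed at 8.98, 3.37 and 4.67 FPKM in young and 22.3, 94.0 and 37.3 FPKM in old libraries. Its highest young and highest old library were the same ones as for the members. Old replicate 2 was also the highest old library for all 19 targets. Without it limma called 0 of 19, with 17 at an unadjusted p below 0.05, and their median log2 change was 1.66, when 0.225% of all genes rose. Limma also called 0 of 19 without old replicate 3 and without young replicate 2, with 18 and 17 higher at an unadjusted p below 0.05. Many of the targets respond to both kinds of interferon, so that the lists do not separate them.

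Proteins of the ATG8 conjugation system load IRGs and GBPs onto vacuoles. Of its 10 genes, none rose and 1 fell, Atg5, with a log2 change of -0.48 (limma adjusted p = 0.0261), and none was higher at an unadjusted p below 0.05. Over all genes, 5.41% rose and 3.68% fell. GBPs also open the way to inflammasomes, and of 9 genes of that list 2 rose, Casp4 (1.89), the sensor of cytosolic lipopolysaccharide, and its substrate Gsdmd (1.22), which forms pores in the membrane.

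Markers of macrophages and of some T cells were also higher in old mice. The share of all genes that rose was 5.41%. Of 11 macrophage markers, 8 rose, led by Aif1 (2.10), C1qc (1.95), C1qa (1.93), Tyrobp (1.86) and C1qb (1.77), and their summed level was 79.8 to 138.8 FPKM in young and 314.2 to 404.5 FPKM in old libraries. Of 8 tested markers of T and NK cells 2 rose, Cd3g and Cd4. The summed level of all 11 such markers in the table was 0.787 to 1.55 FPKM in young and 7.31 to 7.52 FPKM in old libraries, with Ncr1 and Gzma at 0 in all libraries. With so low a young level, a marker can pass the filter through its level in old mice alone. With a filter at 1 FPKM only 1 of them was tested. Old replicate 2 was a median of 1.27 times the mean of the other old libraries for the macrophage markers and 1.06 times for the T and NK cell markers, against 1.98 times for the members. Young replicate 1 was 1.48 and 0.647 times the mean of the other young libraries, against 1.50 times for the members. Without old replicate 2, limma called 0 of 11 macrophage markers and 0 of 7 T and NK cell markers, with 9 and 5 at an unadjusted p below 0.05, and without young replicate 1 it called 7 and 2. Over all genes, 0.225% and 2.76% then rose. Of the macrophage markers limma called 0 without the filter, with 9 at an unadjusted p below 0.05, and 4 without a variance trend. Limma called none of the 8 neutrophil and 6 B and plasma cell markers, of which none had an unadjusted p below 0.05. Limma also called none of the 10 endothelial markers, with 3 lower at an unadjusted p below 0.05. The part of these cells in the levels of the members was not tested.

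Other markers that changed were those of hair cells, of which 3 of 8 fell (Gfi1, Ocm and Slc26a5), and of bone, of which 1 of 5 fell (Ibsp, -2.63). Over all genes, 5.41% rose and 3.68% fell, and 33.5% had groups that did not overlap in either direction. All 5 bone markers were lower in old mice without overlap of the groups and at an unadjusted limma p below 0.05. Their median log2 change was -2.63, and they summed to 28.5 to 206.0 FPKM in young and 13.1 to 20.3 FPKM in old libraries. At an unadjusted p below 0.05, 6 of the 8 hair cell markers were lower. Of 7 supporting cell markers 1 rose (Otog, 0.71) and 3 were lower in old mice, down to a log2 change of -0.98, with 2 higher and 2 lower at an unadjusted p below 0.05. None of 6 erythroid markers was called by limma, with 1 lower at an unadjusted p below 0.05. The part of these differences in tissue composition in the results was not tested.

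Most counts of called genes in the lists fell when old replicate 2 was left out. So did the counts over all genes, from 1063 to 44 higher and from 724 to 15 lower. Limma then called 2 of 15 interferon gamma targets, and 0 genes of the lists of the interferon gamma pathway, the type I pathway and the inflammasome, with 4, 5 and 4 higher at an unadjusted p below 0.05. It also called 0 related GTPases, ATG8 genes, hair cell markers and bone markers, with 2, 1, 6 and 5 lower at an unadjusted p below 0.05, and 0 supporting cell markers, with 1 higher and 2 lower. Without young replicate 1, 540 of all genes rose and 168 fell. Limma then called 4 other GBP and IRG genes, 8 interferon gamma targets and 14 type I targets, 2 genes of the type I pathway, 1 of the inflammasome list, 2 hair cell markers and 1 bone marker. It then called 0 genes of the interferon gamma pathway (5 higher at an unadjusted p below 0.05), 0 related GTPases (3 lower), 0 ATG8 genes (1 lower) and 0 supporting cell markers (1 higher and 1 lower). Counts also fell without old replicate 3 and without young replicate 2, when 247 and 221 of all genes rose. Limma then called 1 and 1 other GBP and IRG genes, 4 and 3 interferon gamma targets and 0 and 0 type I targets. At an unadjusted p below 0.05, 10 and 10, 11 and 10, and 18 and 17 of these were higher.

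**Figure D5:**
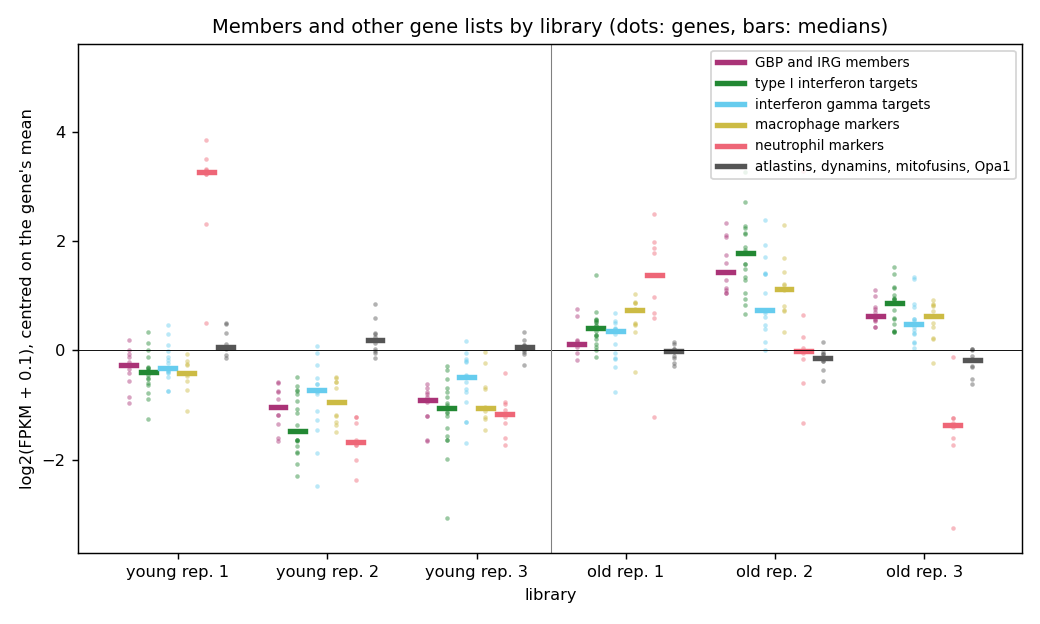
Log2(FPKM + 0.1) of each gene, centred on its own mean over the 6 libraries (y axis), for the members and 5 other lists in each library (x axis), where dots are genes and bars are medians. The members and the type I interferon targets are highest in old replicate 2, the neutrophil markers stand high in young replicate 1, and the related GTPases stay near 0.

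Outside both families, the genes whose levels over the 6 libraries were most like the mean of the members were sought among 15055 genes with a mean of at least 1 FPKM. By the root mean square distance of the centred log2 levels, they were Slfn2 (0.0796), Uba7 (0.0830), Cmpk2 (0.125), Ms4a6b (0.164), Rtp4 (0.172), Usp18 (0.175), Tap1 (0.189) and Ifi204 (0.192). The members themselves lay between 0.138 (Ifi47) and 0.494 (Gbp6) from their own mean. Slfn2 is a Schlafen gene needed for immune cell quiescence, and Uba7 encodes the enzyme that activates Isg15. These and Cmpk2 were nearer to the mean profile than any single member was, but they were picked as the nearest of 15055 genes and the members were not. Slfn2 was at 3.08 ± 0.744 FPKM in young and 9.84 ± 4.21 FPKM in old mice (SD, n = 3), with a log2 change of 1.59.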

How the data were processed

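RNA of 3 young and 3 old cochlear libraries was analysed, each of mixed tissue of 3 mice. Per the submitters' processing notes, CASAVA 1.8, TopHat2 2.0.9, Cufflinks 2.1.1 and Cuffdiff 2.1.1 were used on GRCm38. The authors made directional libraries with paired reads of 150 nt, and deposited FPKM per transcript and library. The annotation release and the scaling between libraries are not given in the sources used here. The values were not scaled further.

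Transcripts were matched by identifier to GENCODE M21, which held 55275 of 56671. A further 992 were the authors' own and 404 were not matched. FPKM was summed per gene. Genes with a mean of at least 0.1 FPKM were compared with limma 3.58.1 (R 4.3.3, eBayes with a variance trend) on log2(FPKM + 0.1), with age group as the only term and Benjamini-Hochberg adjustment over all genes or transcripts tested (threshold 0.05). Fold changes on this scale understate those of low genes. Cuffdiff, the study's test, needs reads and was not run. Depth was estimated from steps between low FPKM values, of which 92.6% to 94.7% lay within 0.1 of a whole number of fragments, against 20.0% by chance. Fragment numbers cover counting error only. The fit was tested on simulated data.

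Named are the members, the other family genes in the table, up to 5 genes per further list with the largest change past the threshold, genes of the interferon gamma pathway set by name, and the 8 genes nearest to the members' profile. Cxcl9, Ifnb1, Ncr1 and Gzma, and the single transcripts, were named after their values were seen. The members and lists were chosen with earlier results of these data known. Gbp11, Gm12250, Cxcl11, Mx2 and Trac were listed and not analysed here, and the values of 2 genes of the lists and the result of the Schwann cell list are not reported here. The numbers of the labels did not pair the libraries. Pseudocount, filter, scaling, variance trend, sample weights, replicate block, transcript choice, threshold and each library left out were varied. Tables and plots were made in Python 3.11.15 (pandas 2.3.3, numpy 2.4.6, matplotlib 3.10.9).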

Additional observations from a re-analysis of the deposited data

How the results depend on the processing

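The direction of all 10 members was the same in all 180 values from 18 alternative settings, and 138 of them kept their side of the threshold. The filter settings, the fit without a variance trend and the replicate block leave the log2 changes as they were. Their direction could thus not differ, and the minimum of 500 nt altered the change of Gbp3 alone. For the 9 members whose groups did not overlap, another pseudocount, sample weights or leaving out libraries could not turn the sign either. The calls were less stable, and the causes were not tested. Of the 10 members, 5 passed as reported, 0 without the filter on low values, 0 without a variance trend, 8 with sample weights and 9 at an unadjusted p below 0.05. Leaving out single libraries gave 1 to 4 members. Among all genes, 1063 rose and 724 fell as reported, 206 and 101 without the filter, 271 and 121 without a trend, 2843 and 2560 at an unadjusted p, and 405 and 245 with a 2-fold minimum, and leaving out single libraries gave 44 to 935 and 15 to 821. Of the other GBP and IRG genes, interferon gamma targets and type I targets, 6, 8 and 15 rose, but 1, 1 and 0 without the filter and 3, 2 and 0 without a trend, and 0 to 5, 2 to 8 and 0 to 14 with single libraries left out.

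The replicate numbers did not pair the libraries, as deviations of libraries with the same number correlated at 0.02, -0.04 and 0.01 over genes. With a replicate block 1 of 10 members passed (Gbp6), 410 genes rose and 265 fell, and 3, 5 and 2 genes of these lists rose. The log2 changes were those reported, 2.27 for Gbp3, 1.20 for Igtp, 1.43 for Irgm1 and 2.10 for Iigp1, with limma adjusted p of 0.0634, 0.0550, 0.0549 and 0.0512.

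Without the filter and without a trend the log2 changes also were those reported, 2.27 for Gbp3, 2.55 for Gbp6, 1.20 for Igtp, 1.43 for Irgm1 and 2.10 for Iigp1, with limma adjusted p from 0.0725 and from 0.0503 upward. Iigp1 by its most abundant transcript changed by 2.46 and did not pass. Gbp7 and Ifi47 passed, with changes of 1.17 and 1.64, with a filter at 1 FPKM and with transcripts of at least 500 nt. With sample weights Gbp7 (1.31), Ifi47 (1.83) and Irgm2 (1.11) passed too. Leaving out single libraries, the log2 change ranged from 1.79 to 2.74 for Gbp3, from 2.14 to 2.81 for Gbp6, from 0.95 to 1.44 for Igtp, from 1.14 to 1.73 for Irgm1, from 1.76 to 2.46 for Iigp1. The minimum of 500 nt, and leaving out young replicate 1 and old replicate 2 together, were chosen after seeing the data. Without both libraries, 2 of 10 members passed, and Gbp3 (1.93), Igtp (1.04) and Irgm1 (1.22) did not.

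Of 216 alternative values for single transcripts, 10 turned sign, all in short or minor transcripts that passed in no setting. These were ENSMUST00000128609 (from -0.27 to 1.67) and ENSMUST00000142060 (from -0.60 to 2.10) of Gbp3, ENSMUST00000196677 (from -0.23 to 2.08) and ENSMUST00000199629 (from -0.71 to 0.55) of Gbp4, and ENSMUST00000168280 (from -0.92 to 0.10) of Igtp, given as the range of the log2 change with single libraries left out. With 3 pools per group, old replicate 2 far above the others and 23.9 estimated fragments for Ifi47 in young replicate 3, the size of the changes is uncertain.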
